A study of Mus musculus with 5 samples.

Results

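The genes described here are 34 mouse genes that act in the repair of DNA crosslinks, in other repair of alkylated or bulky lesions, and in the checkpoint that answers to such damage. They were chosen by symbol from a written list and not by a cut on their measured values, though with earlier results of these data known. All 34 were found among the 31053 genes of the deposited matrices. By role they were 9 genes of the Fanconi core complex and its E2 enzyme, the ID2 pair (2 genes), 3 genes of the incision step, 12 genes of homologous recombination, 4 checkpoint kinases and 4 genes of other lesion repair. Single-cell RNA had been measured in 5 libraries of bone marrow (BM) cells from BALB/c mice aged 4 to 8 weeks. Whole BM, labelled CD45+, came from untreated mice (naive) and from mice given 150 mg/kg cyclophosphamide (CTX) into the peritoneum, 2 days (D2 CTX) or 7 days (D7 CTX) earlier. Each of these libraries pooled equal numbers of cells from 3 mice, after lysis of red blood cells and removal of dead cells. The remaining libraries held CD11b+Ly6Chi monocytes sorted from naive mice (sorted naive) and from CTX-treated mice (sorted CTX). The study's methods put the sorted CTX cells on day 7, the labels give no day, and the number of mice behind the sorted libraries was not given.

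A crosslink that joins both strands of DNA stops a replication fork. In the Fanconi pathway a multi-protein core complex, with Fancl as its ligase and Ube2t as its E2 enzyme, attaches ubiquitin to the Fancd2 and Fanci pair, nucleases held by Slx4 cut around the crosslink, translesion polymerases fill in across it, and homologous recombination restores the broken strand while Atr and Chek1 hold the cell cycle. CTX is a prodrug whose active form alkylates and crosslinks DNA, and blood-forming cells are known to depend on the Fanconi pathway.

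Levels are unique molecular identifiers (UMIs) of a gene, or of the 34 genes together, as a share of all UMIs of the same cells on the usual CPM scale. A cell was called cycling when at least 5 of 1000 UMIs drawn from it belonged to 34 S phase and 46 G2/M phase genes, none of which is among the 34 genes described. With 1 library per condition there was no replicate and no test, and all intervals, printed in parentheses at 95%, cover counting error only. After filtering, 1891 to 8290 cells per library remained, with a median of 3033.5 UMIs per cell in D2 CTX, 3953.5 in naive, 7189.5 in D7 CTX and 9694 to 10299 in the sorted libraries. Any pair of libraries shared 2 to 16 cell barcodes. Cycling cells made up 27.0% of the scored cells in naive, 11.4% in D2 CTX, 25.3% in D7 CTX, 29.1% in sorted naive and 37.1% in sorted CTX. Between 86 and 450 cells per library lay at the limit, with 4 or 5 such UMIs, and 17 to 599 cells with fewer than 1000 UMIs were scored in neither state. Cycling cells were deeper than non-cycling cells, with medians of 11681 and 3228 UMIs in naive and of 19302 and 3066.5 in D2 CTX. Doublets were kept. Against the labels, whole BM held 750 erythroid-like cells and 51 cells of an unnamed cluster led by Cxcl12 and Igfbp5, and the sorted monocytes held 197 plasma cell-like and 90 neutrophil precursor-like cells. These plasma cell-like cells were led by Ighg2b, Igkc and Ighm and were shallow, with a median of 1776 UMIs, against 16345.5 in the plasma cell-like cells of whole BM. Whether they were plasma cells was not tested.

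The promoters of several members are shown first, since many of these genes are known to be switched on with the cell cycle by E2F factors. From 250 bases before to 50 bases after each RefSeq start site, on GRCm38.p6, 33 promoters of 29 of the 34 genes were at hand. The letters TTTCCCGC, TTTGGCGC, TTTCGCGC or TTTGCCGC, an E2F-type motif sought on both strands, stood in 7 of these 33 promoters (21.2%) and in 744 of 32851 promoters of the same length (2.26%). A match is a description of the sequence and no evidence of binding. The 4 promoters below are those of Bard1 (chr1:71102923-71103222, minus strand), Brca2 (chr5:150522371-150522670, plus strand) and Msh6 (chr17:87974800-87975099, plus strand), each with the motif in capitals, and of Mgmt (chr7:136894336-136894635, plus strand), which held none of these letters and is the gene with the highest ratio at D2 CTX.
Bard1: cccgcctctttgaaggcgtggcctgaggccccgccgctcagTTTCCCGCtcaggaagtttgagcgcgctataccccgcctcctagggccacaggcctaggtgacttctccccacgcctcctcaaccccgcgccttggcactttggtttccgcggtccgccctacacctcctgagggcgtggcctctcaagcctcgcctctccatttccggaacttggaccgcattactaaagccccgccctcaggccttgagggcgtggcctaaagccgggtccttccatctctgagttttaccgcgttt
Brca2: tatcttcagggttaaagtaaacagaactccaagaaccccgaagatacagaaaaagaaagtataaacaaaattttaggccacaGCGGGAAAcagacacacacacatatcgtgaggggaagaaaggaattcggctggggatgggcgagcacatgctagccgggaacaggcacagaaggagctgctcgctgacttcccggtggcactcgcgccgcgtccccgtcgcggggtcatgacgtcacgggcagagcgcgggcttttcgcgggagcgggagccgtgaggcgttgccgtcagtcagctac
Msh6: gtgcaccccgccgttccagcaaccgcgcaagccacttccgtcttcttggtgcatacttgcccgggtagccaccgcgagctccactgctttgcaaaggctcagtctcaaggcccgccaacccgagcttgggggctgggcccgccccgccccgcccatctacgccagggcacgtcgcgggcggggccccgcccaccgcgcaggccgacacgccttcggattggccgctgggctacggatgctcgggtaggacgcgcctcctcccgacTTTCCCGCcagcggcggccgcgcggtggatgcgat
Mgmt: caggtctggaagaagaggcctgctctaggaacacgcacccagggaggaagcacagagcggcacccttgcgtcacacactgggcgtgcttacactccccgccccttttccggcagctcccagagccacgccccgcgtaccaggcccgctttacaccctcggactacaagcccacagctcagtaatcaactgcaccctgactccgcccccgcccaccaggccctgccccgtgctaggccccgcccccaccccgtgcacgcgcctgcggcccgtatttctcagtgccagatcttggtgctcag
The motif began at base -209 relative to the start site in Bard1, at -168 in Brca2 and at 15 in Msh6. The other matches lay in Chek2, in Fancg and in both promoters of Rad51c. Among promoters of the 13 members most tied to cycling cells (below), 3 of 12 (25%) held the motif, as did 4 of 21 (19.05%) of the other members' promoters. The letters TTTGAA or TTCGAA, the core of the cell cycle homology region, stood in 2 of 33 member promoters (6.06%) and in 19.2% of all promoters.

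The first comparison asked how far these genes belonged to dividing cells. Summed over the 34 genes, the level in cycling cells was 929 CPM in naive, 856 in D2 CTX, 554 in D7 CTX, 541 in sorted naive and 612 in sorted CTX. In non-cycling cells it was 230.2, 257, 181, 173 and 196 CPM in the same order. Every library thus had a higher sum in its cycling cells, by log2 2.01 (1.97 to 2.06) in naive, 1.74 in D2 CTX, 1.61 in D7 CTX, 1.65 in sorted naive and 1.64 in sorted CTX. Taken with 1 CPM added, unlike the sum, the median gene differed by 0.12, 0.11, 0.27, 0.01 and -0.01 in these libraries. The median gene of later comparisons was taken in the same way. With 1 CPM added, and among genes with at least 100 UMIs in the cells compared, 25 of 34 members were at least 1 log2 unit higher in cycling cells of naive BM, against 17.3% of all genes. The count was 23 of 32 members with enough UMIs in D2 CTX (19% of all genes), 25 of 33 in D7 CTX (16.4%), 16 of 26 in sorted naive (8.29%) and 20 of 32 in sorted CTX (8.55%). No member was 1 log2 unit lower in cycling cells of any library, where 14.4% of all genes were lower in naive, 14.7% in D2 CTX, 6.7% in D7 CTX, 5.08% in sorted naive and 4.57% in sorted CTX.

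The members fell along a wide range of this ratio, taken here without added CPM or a limit on UMIs. Counts over all 5 libraries, here and in the next paragraph, were not made for all genes, so no share of all genes stands beside them. In all, 13 members were at least 2 log2 units higher in the cycling cells of all 5 libraries. Both genes of the ID2 pair were among these, with a median ratio over the libraries of 3.92 for Fanci (3.32 to 4.97 over libraries) and 3.79 for Fancd2 (2.98 to 5.41). So was Ube2t, the E2 enzyme that serves them, with 3.85 (2.91 to 4.24). The homologous recombination genes of the group were Brip1, a helicase bound to Brca1 (3.76), Rad51ap1 and Rad54l, which promote strand invasion (3.71 and 3.55), Brca1 and its partner Bard1 (3.52 and 3.43), the nuclease Exo1 (3.42), the helicase Blm (3.13) and Brca2, a mediator of recombination (2.87). The effector kinases Chek1 (3.02) and Chek2 (2.60) completed it. Brip1 varied least between libraries, from 3.60 to 3.81.

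At the other end, 5 members stayed under 1 log2 unit in all 5 libraries. They were Fance, a core complex subunit (median 0.40), Polk, a translesion polymerase (0.38), Ercc1 and Ercc4, the nuclease pair of the incision step (0.38 and 0.19), and Xpc, which finds bulky lesions for excision repair (-0.12). The apical kinases Atm (0.60, from 0.39 to 1.25) and Atr (0.47, from 0.25 to 1.11) lay close to them. The genes of the core complex were therefore spread over much of the range, from Fance to Fancb at 2.69 and Ube2t at 3.85. Fanca differed between whole BM and sorted cells, with ratios of 2.33 for naive BM, then 2.32 and 1.57 on days 2 and 7 after CTX, but 0.54 and 0.12 in sorted naive and sorted CTX.

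**Figure D1:**
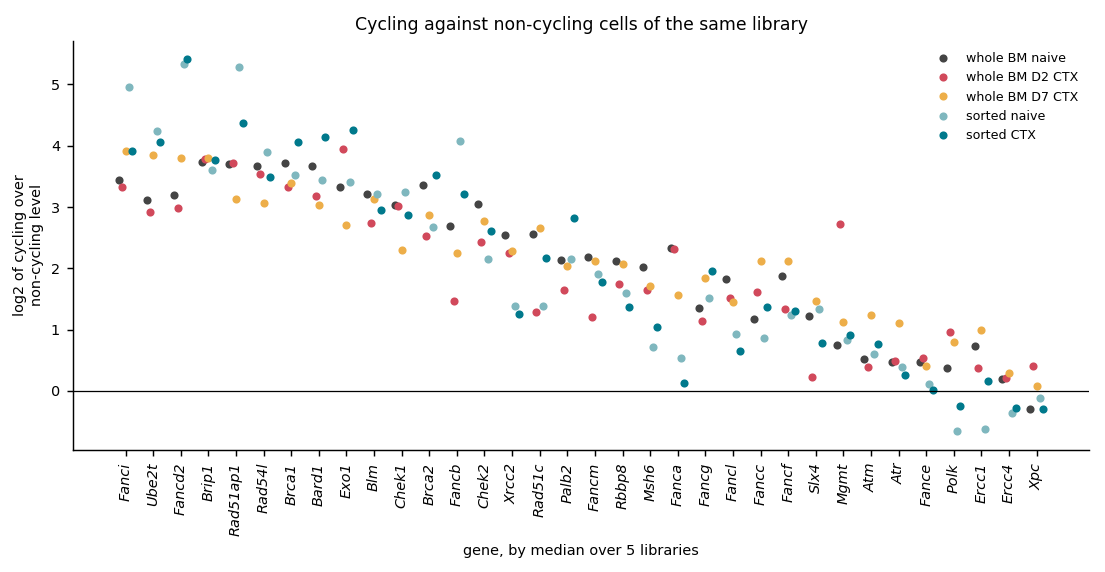
Log2 ratio of the level in cycling cells over that in non-cycling cells of the same library (vertical axis) for each gene (horizontal axis, ordered by the median over 5 libraries), 1 point per library. No limit on UMIs was set, so some points rest on few UMIs. Fanci, Ube2t and Fancd2 stand at the left with medians of 3.92, 3.85 and 3.79, and Xpc stands last at -0.12.

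Of the other pathway genes in naive BM, 13 of 18 other checkpoint genes, 20 of 30 other crosslink repair and recombination genes, 9 of 22 excision, mismatch and direct repair genes and 2 of 7 end joining genes were at least 1 log2 unit higher in cycling cells, beside the 17.3% of all genes given above. The median ratio in naive BM was 0.35 for end joining, which needs no sister copy of the DNA. It was 0.78 for the excision, mismatch and direct repair list, 1.40 for the crosslink repair list and 1.62 for the checkpoint list. In the other libraries the end joining median ran from 0.14 in D2 CTX to 0.72 in D7 CTX. The reason for these differences was not tested.

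Finer steps of the cycle score gave the same order. In naive BM the summed level was 160.1 CPM (152 to 169) in cells with no cycle UMI, 221 with 1 to 2, 478 with 3 to 4, 622 with 5 to 9, 877 with 10 to 19 and 1318 (1291 to 1345) with 20 or more. In D2 CTX the steps were 192, 252, 544, 814, 858 and 1314 CPM, and in D7 CTX they were 134, 183, 382, 492, 587 and 884. In the sorted libraries the level was highest at 10 to 19 cycle UMIs, with 559 CPM in naive and 633 in CTX, and stood at 485 and 548 above that.

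Cycling cells were also split by whether their S phase or their G2/M phase UMIs were the more numerous. The summed level was higher in S-leaning cells, by log2 0.28 (0.24 to 0.32) in naive, 0.37 in D2 CTX, 0.58 in D7 CTX, 0.58 in sorted naive and 0.55 in sorted CTX. By the sign of the ratio, 19 members were higher in S-leaning cells in all 5 libraries, and 6 of these by at least 0.5. The ratio was not computed for all genes, so these counts have no share of all genes beside them. Some intervals in single libraries held 0, as for Fance in naive (-0.21 to 0.55). The 6 were Msh6, which recognises mismatches (median 1.81), Chek1 (1.79), Exo1 (1.46), Brca1 (1.22), Rad54l (1.07) and Atm (0.99). Only Chek2 (median -0.31) and Ube2t (-0.17) were lower in S-leaning cells of every library, by the sign of the ratio. Their intervals did not all exclude 0, as in sorted naive with -0.71 to 0.39 for Chek2 and -0.36 to 0.31 for Ube2t.

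**Figure D2:**
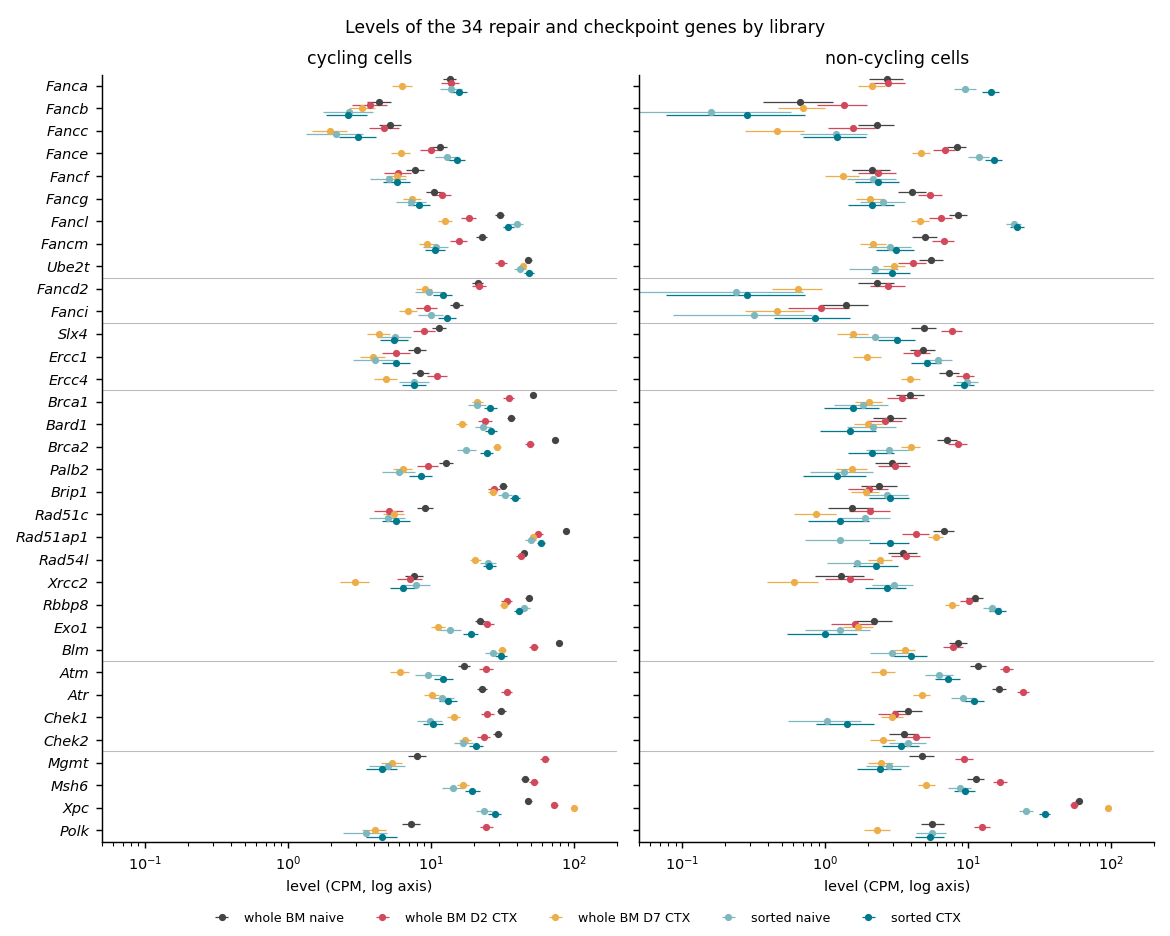
Level of each of the 34 genes in CPM (horizontal log axis) in cycling cells (left) and non-cycling cells (right) of the 5 libraries, with exact Poisson 95% intervals, parts of intervals below 0.05 not being drawn. Grey lines part the roles in the order core complex and E2, ID2 pair, incision, homologous recombination, checkpoint kinases and other lesion repair, and the Mgmt point of D2 CTX stands apart from the other 4 libraries.

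Among the classes of naive BM, the sum was highest in erythroid-like cells (1276 CPM) and B precursor-like cells (831), and was 765 in an unnamed cluster, here cluster 18, led by Pf4, Prss34, Angpt1 and Meis1. It was 608 in conventional DC-like, 582 in NK cell-like, 564 in GMP-like, 390.5 in monocyte lineage-like and 374 in neutrophil precursor-like cells, GMP standing for granulocyte-monocyte progenitor. The conventional DC-like class was led by Bex6, H2-Aa, Flt3, Dntt, H2-Ab1, Ccnd1, H2-Eb1, Irf8, H2-DMb1 and Ly6d. Of its scored naive cells 44.8% were cycling, and whether they were mature dendritic cells was not tested. Neutrophil-like cells had 102 CPM and plasma cell-like cells 68.8. B cell-like cells had 356 CPM and T cell-like cells 299, not far below the neutrophil precursor-like cells. Within classes, cycling cells of naive BM were higher by log2 1.65 in both B precursor-like and monocyte lineage-like cells, by 1.47 in conventional DC-like, 1.22 in neutrophil precursor-like and 1.19 in erythroid-like cells. The ratio was 0.83 in NK cell-like cells and 0.48 in cluster 18, and it was smallest in GMP-like cells, with 587 CPM in 82 cycling and 536 CPM in 79 non-cycling cells, or 0.13 (-0.04 to 0.30). In D7 CTX, with 182 and 288 such cells, the ratio was 0.32 (0.21 to 0.43).

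Xpc, the most abundant member with 16.5% of the members' UMIs in whole BM, had a class pattern of its own. In cycling cells of naive BM it was at 168 CPM in GMP-like, 134 in neutrophil precursor-like, 71.0 in conventional DC-like, 22.5 in B precursor-like, 19.9 in monocyte lineage-like and 6.67 in erythroid-like cells. Non-cycling neutrophil-like cells had 70.9 CPM of Xpc, while the sum of all 34 genes there was 100.01 CPM. The erythroid-like cells, highest in the sum, were thus the lowest of these in Xpc. Fancl ran the other way, with 44.6 CPM in cycling erythroid-like and 3.79 in cycling neutrophil precursor-like cells.

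**Figure D3:**
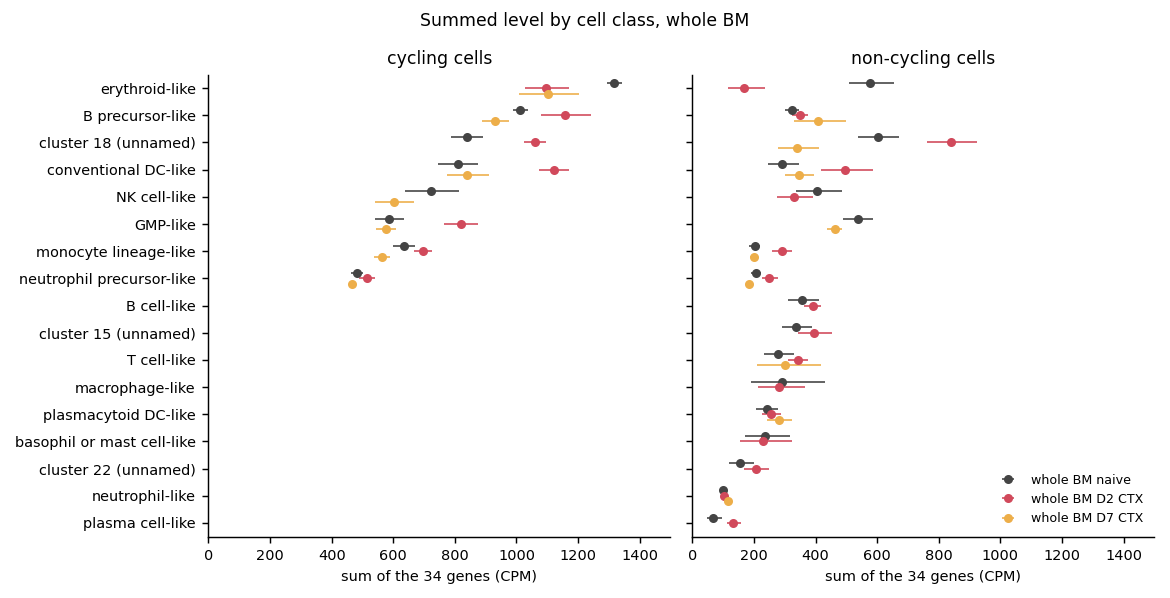
Sum of the 34 genes in CPM (horizontal axis) by cell class of whole BM in cycling (left) and non-cycling cells (right), with exact Poisson 95% intervals, for groups of at least 20 cells. Cycling erythroid-like cells of naive BM stand at 1318 CPM, and non-cycling neutrophil-like cells lie near 100 CPM in all 3 libraries.

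On day 2 after CTX the summed level in whole BM was lower, while within classes it went both ways. Over all kept cells the sum was 611 CPM in naive and 507 in D2 CTX, a log2 ratio of -0.27 (-0.30 to -0.24), where the median of all genes rested at 0.20. In cycling cells the ratio was -0.12 (-0.15 to -0.09) beside a median gene of 0.17, and in non-cycling cells it was 0.16 (0.10 to 0.22) beside 0.22, turning to -0.079 when libraries were scaled by the median of gene ratios. D2 CTX held 629 cycling cells where naive held 1841, 137 erythroid-like cells where naive held 553, and 777 B precursor-like cells where naive held 1536. When the D2 CTX library was set against the level that naive cells of the same class and cycling state would give in its makeup, the sum was 510.2 against 437 CPM, a log2 ratio of 0.22 (0.20 to 0.25, with the naive level taken as fixed). This value ran from 0.093 to 0.27 over the alternatives, was 0.12 under the scaling by the median of gene ratios and was 0.16 without Mgmt.

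By class, cycling cells had a higher sum in D2 CTX than in naive BM by log2 0.48 (0.33 to 0.63) in GMP-like, 0.47 (0.34 to 0.60) in conventional DC-like, 0.34 (0.24 to 0.44) in cluster 18, 0.19 (0.09 to 0.30) in B precursor-like, 0.13 (0.03 to 0.24) in monocyte lineage-like and 0.09 (0.00 to 0.18) in neutrophil precursor-like cells. Cycling erythroid-like cells were lower, with 1097 against 1318 CPM, a ratio of -0.26 (-0.36 to -0.17). Non-cycling erythroid-like cells were lower still, with 168 against 578 CPM from 56 and 53 cells, a ratio of -1.78 (-2.36 to -1.25). Over all kept cells of a class, B precursor-like cells stood at -0.56 (-0.64 to -0.48), erythroid-like cells at -0.48 (-0.58 to -0.39) and NK cell-like cells at -0.24 (-0.479 to -0.0013), while conventional DC-like, monocyte lineage-like and GMP-like cells stood at 0.77, 0.58 and 0.56. The cells behind these classes were not the same. Cluster 8 held 608 of the 1536 B precursor-like cells in naive BM and 38 of 777 in D2 CTX, cluster 16 held 329 of 553 erythroid-like cells and then 16 of 137, and the GMP-like class had 32 cycling cells in D2 CTX.

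Mgmt, which removes alkyl groups from guanine, had the highest ratio of all members at D2 CTX. Over all kept cells its level was 6.53 CPM in naive, 31.3 in D2 CTX, 3.56 in D7 CTX, 3.73 in sorted naive and 3.49 in sorted CTX. D2 CTX was the highest, naive came next, and the other 3 libraries lay close to each other below it. The log2 ratio of D2 CTX over naive was 2.26 (2.08 to 2.45), and 2.96 (2.73 to 3.18) in cycling cells, where the levels were 62.1 and 8.004 CPM. Against the naive level in the same makeup it was 1.67 (1.58 to 1.75), with 31.6 against 9.96 CPM.

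Mgmt was higher in the cycling cells of each of the 7 classes with enough cells in both libraries. Between naive and D2 CTX its level went from 16.0 to 107 CPM in GMP-like, from 8.04 to 84.2 in conventional DC-like, from 5.89 to 77.4 in erythroid-like and from 5.25 to 66.0 in monocyte lineage-like cells. In neutrophil precursor-like cells 2 UMIs in naive faced 66 in D2 CTX, 0.40 against 20.4 CPM, a log2 ratio of 5.67 (3.76 to 8.75). The classes with the highest naive levels changed in unlike measure, since cluster 18 went from 54.2 to 81.4 CPM, by log2 0.59 (0.194 to 0.996), and GMP-like cells by 2.74 (2.00 to 3.58). Non-cycling neutrophil-like cells had 0.46 CPM of Mgmt in both libraries, from 3 UMIs each. In D7 CTX the level in GMP-like cycling cells was 25.0 CPM, a log2 ratio to naive of 0.65 (-0.16 to 1.53).

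Polk, a polymerase that copies past bulky lesions, was the other member at least 1 log2 unit higher at D2 CTX. Its level over all kept cells was 6.51 CPM in naive, 17.5 in D2 CTX, 2.97 in D7 CTX, 4.67 in sorted naive and 4.996 in sorted CTX. Again D2 CTX stood above the other libraries, by log2 1.43 (1.22 to 1.63) over naive and by 1.74 (1.48 to 2.01) in cycling cells. The ratio in cycling cells was 2.47 (1.59 to 3.44) in neutrophil precursor-like, 2.35 (1.05 to 4.02) in conventional DC-like, 1.76 in cluster 18, 1.66 in erythroid-like, 1.57 in GMP-like, 1.54 in B precursor-like and 1.26 (0.42 to 2.19) in monocyte lineage-like cells. In non-cycling cells Polk was the single member past 1 log2 unit, with 12.6 against 5.60 CPM and a ratio of 1.16 (0.841 to 1.496), so that 1 of 26 members with enough UMIs was higher there, beside 3.67% of all genes, and 0 of 26 lower, beside 0.969%.

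**Figure D4:**
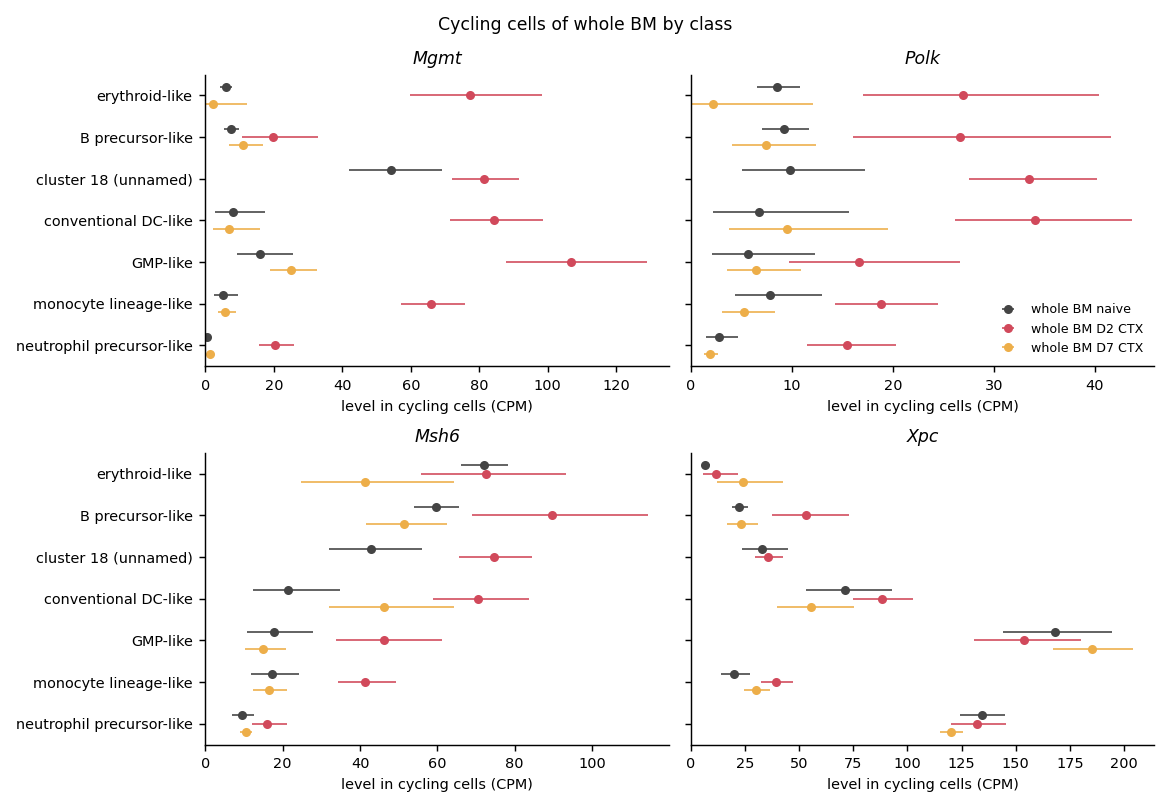
Levels of Mgmt, Polk, Msh6 and Xpc in CPM (horizontal axes, each with its own scale) in cycling cells of whole BM by class, with exact Poisson 95% intervals, for groups of at least 20 cells. The D2 CTX points of Mgmt and Polk lie to the right of the naive points in each of the 7 classes with both, and those of Xpc do so in B precursor-like and monocyte lineage-like cells beyond both intervals.

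Mgmt and Polk were thus 2 of 34 members higher at D2 CTX, where 6.5% of all genes were higher, and they were also the 2 members higher in cycling cells, against 10.2% of all genes. No member was 1 log2 unit lower in all kept cells (3.19% of all genes) or in cycling cells (4.94%), but 6 members were lower in all kept cells under the scaling by the median of gene ratios. The median member stood at -0.34 in all kept cells and at -0.26 in cycling cells, on the scale with 1 CPM added.

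In the same makeup, 16 of 34 members lay above the naive level beyond the interval and 6 below it, with a median of 0.15. These intervals, here and in the later counts of members in the same makeup, cover the treated counts alone and leave out the counting error of the naive level, so they are too narrow. No such count or median was computed over all genes, so none of these counts can be read against a share of all genes. Without regard to makeup, the median gene over all kept cells stood at 0.20 at D2 CTX. After Mgmt and Polk the highest was Msh6, with 31.7 against 17.9 CPM and a log2 ratio of 0.83 (0.74 to 0.91), though over all kept cells its level was nearly equal, 31.6 CPM in D2 CTX and 29.9 in naive. Msh6 was higher in cycling cells of conventional DC-like (21.4 to 70.4 CPM), GMP-like (17.8 to 46.1) and monocyte lineage-like cells (17.3 to 41.4), and nearly equal in erythroid-like cells (72.0 and 72.7). Exo1 followed at 0.59, then the core complex gene Fancb at 0.52, Rad54l and the core complex gene Fancg at 0.50, Fancd2 at 0.44, Atr at 0.39 and Atm at 0.36.

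The 2 apical kinases, which sense broken ends and stalled forks, were higher at D2 CTX also without regard to makeup. Atm was at 14.5 CPM in naive and 20.7 in D2 CTX, and Atr at 19.8 and 28.1. In cycling cells the ratio was 0.52 (0.31 to 0.73) for Atm and 0.57 (0.40 to 0.75) for Atr, while those of the effector kinases Chek1 and Chek2 were negative, with levels of 24.8 against 31.0 and 23.3 against 29.3 CPM. In the same makeup the effector kinases were not lower, with ratios of 0.17 (0.03 to 0.31) for Chek1 and 0.06 (-0.08 to 0.20) for Chek2.

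Members with lower levels shared roles with those above. In cycling cells the lowest ratios were those of Rad51c, a recombination gene (-0.84, from -1.24 to -0.45), Fancl (-0.72), Fanci (-0.69), Rad51ap1 (-0.64) and Ube2t (-0.64). Levels in cycling cells of naive and D2 CTX were 30.2 and 18.4 CPM for Fancl and 47.7 and 30.7 for Ube2t. In the same makeup the members below the interval were Ercc1 (-0.61), Fancf (-0.44), Fancl (-0.43), Ube2t (-0.42), Fance (-0.31) and Rbbp8, which starts the resection of broken ends (-0.12). Fancl, Ube2t, Fance and Fancf belong to the core complex and its E2 enzyme, while Fanca, Fancb, Fancg and Fancm of the same complex lay above the naive level.

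**Figure D5:**
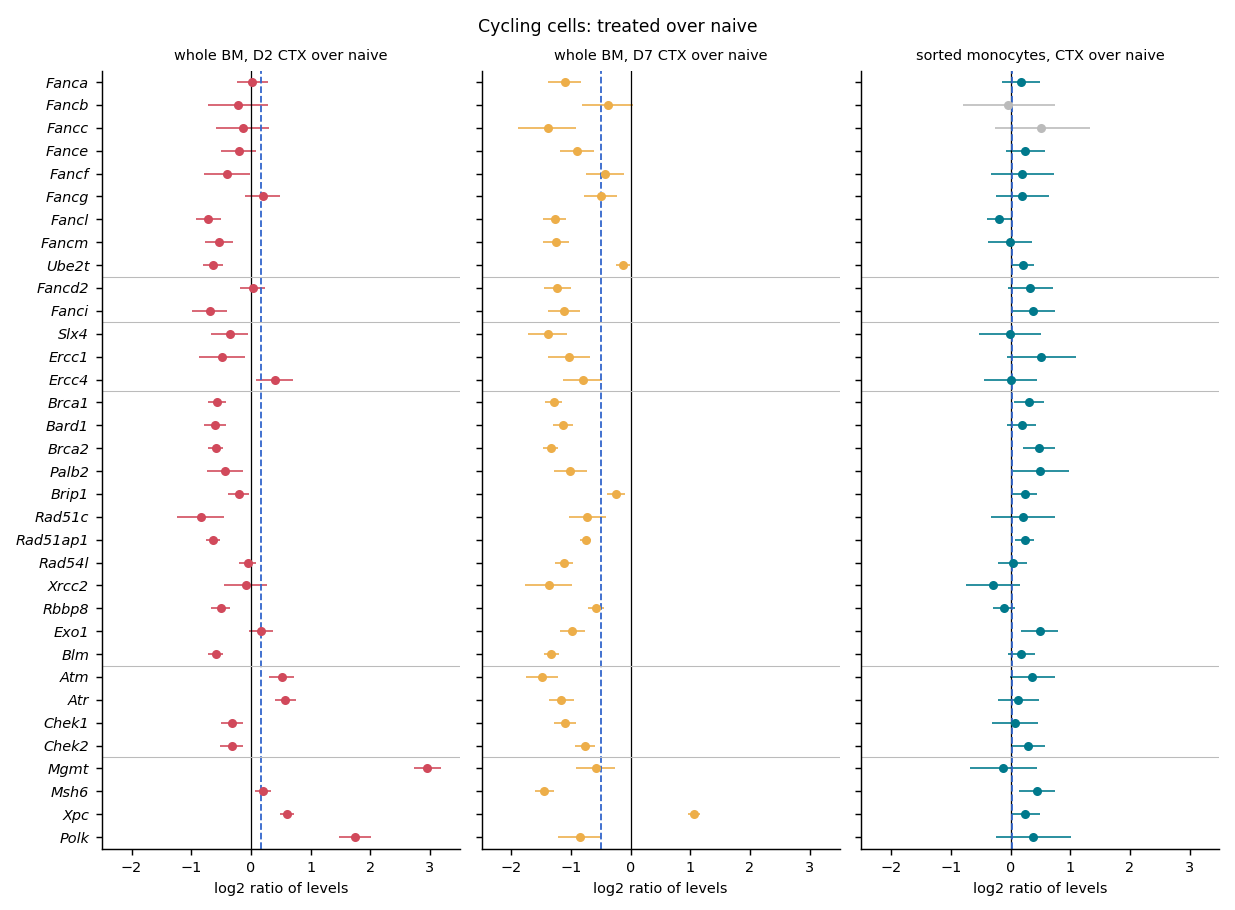
Log2 ratio of the level in cycling cells of each treated library over its naive library for the 34 genes, with exact conditional 95% intervals, grey points having under 100 UMIs in the cells compared. Dashed blue lines mark the median of all genes (0.17, -0.49 and 0.02), taken with 1 CPM added, unlike the points. Mgmt and Polk stand at 2.96 and 1.74 in D2 CTX while Xpc stands at 1.06 in D7 CTX.

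Cdkn1a, a p53 target that holds the cycle, stood at 14.8 CPM in naive BM, 159 at D2 CTX and 12.8 at D7 CTX, and was 141 in sorted naive and 84.4 in sorted CTX. All 10 genes of a list of p53 targets were at least 1 log2 unit higher in cycling cells of D2 CTX, beside 10.2% of all genes. The cycle genes Mki67 and Pcna went from 622 to 261 and from 155 to 65.7 CPM at D2 CTX. Of the other pathway lists in cycling cells, 0 of 29 crosslink repair genes, 1 of 18 checkpoint genes (Trp53bp1), 1 of 22 excision and mismatch genes (Ercc5) and 0 of 7 end joining genes were higher, each a share under that 10.2%. Lower were 0 of the crosslink repair genes, 3 of the checkpoint genes (H2afx, Clspn and Cdc25b) and 1 of the end joining genes (Lig4), beside 4.94% of all genes.

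On day 7 the sum was 326 CPM over all kept cells, against 611 in naive. The log2 ratio was -0.91 (-0.93 to -0.88) where the median gene stood at -0.60, or at -0.68 without the added 1 CPM. In cycling cells the ratio of the sum was -0.75 (-0.78 to -0.72) beside a median of -0.49, or -0.54 without added CPM. In non-cycling cells it was -0.35 (-0.40 to -0.29), but 0.30 under the scaling by the median of gene ratios and 0.040 with the 20 most abundant genes left out of the total. Neutrophil precursor-like cells were 2790 of the D7 CTX cells and 898 of the naive cells, and erythroid-like cells were 60 and 553. Set against the naive level in the same makeup, the sum was 325 against 339.6 CPM, a ratio of -0.06 (-0.08 to -0.04) that turned to 0.047 under the scaling by the median of gene ratios. Within classes, cycling cells differed from naive by -0.05 (-0.12 to 0.01) in neutrophil precursor-like, -0.03 (-0.17 to 0.11) in GMP-like, 0.05 (-0.11 to 0.22) in conventional DC-like, -0.12 in B precursor-like, -0.17 in monocyte lineage-like and -0.26 in NK cell-like and erythroid-like cells.

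At this time 22 of 34 members were at least 1 log2 unit lower in all kept cells, where 23.8% of all genes were lower, and 16 of 34 in cycling cells, where 18.6% were. Under the scaling by the median of gene ratios these counts were 1 and 0, and those of all genes were 868 of 11462 and 733 of 10272 in place of 2725 and 1914. In cycling cells the lowest were Atm (16.9 to 6.04 CPM, -1.49), Msh6 (45.5 to 16.7, -1.45), Fancc (5.20 to 1.98, -1.40), Slx4 (11.4 to 4.33, -1.40) and Xrcc2, a recombination gene (7.56 to 2.93, -1.37). Those nearest to or above 0 were Xpc, Ube2t (-0.13), Brip1 (-0.24), Fancb (-0.39) and Fancf (-0.43). In non-cycling cells 5 of 27 members were lower, beside 21% of all genes, namely Slx4, Blm, Atm, Atr and Msh6, and 0 were higher, beside 0.389%. No member was higher in all kept cells (1.02% of all genes were), and 1 was in cycling cells (3.63%).

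That member was Xpc, at 53.1 CPM in naive, 62.5 in D2 CTX, 96.6 in D7 CTX, 24.6 in sorted naive and 31.0 in sorted CTX. D7 CTX was the highest library and the sorted monocytes the lowest. The log2 ratio of D7 CTX over naive was 0.86 (0.80 to 0.93), and 1.06 (0.96 to 1.16) in cycling cells. Within the classes where Xpc is abundant the ratio in cycling cells was -0.16 (-0.29 to -0.03) in neutrophil precursor-like and 0.14 (-0.12 to 0.40) in GMP-like cells, and in the same makeup the level was 96.7 against 88.8 CPM, a ratio of 0.12 (0.09 to 0.16).

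For the same makeup at D7 CTX too, no count over all genes was made. There, 3 members lay above the naive level beyond the interval (Xpc, Fancb and Ube2t) and 18 below it, with a median of -0.17. The lowest were Fancc (-0.81, from -1.17 to -0.48), Fancd2 (-0.66), Atm (-0.55), Fancg (-0.38) and Atr (-0.36). Atm, Atr, Fancg and Fancd2, among others, were above the naive level at D2 CTX and below it at D7 CTX. The same naive library served both comparisons. Mgmt and Polk, at -0.03 (-0.22 to 0.15) and -0.17 (-0.38 to 0.03), were at the naive level within their intervals.

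The sorted monocytes offered a comparison with a narrower makeup. Over all kept cells the sum was 333 CPM in sorted naive and 407 in sorted CTX, a log2 ratio of 0.29 (0.25 to 0.33) beside a median gene of 0.04. In cycling cells the levels were 541 and 612 CPM, a ratio of 0.18 (0.13 to 0.23), and in non-cycling cells 173 and 196, a ratio of 0.18 (0.10 to 0.26). In the same makeup the sum was 401 against 359 CPM, a ratio of 0.16 (0.14 to 0.19). Most monocytes fell in unnamed clusters, and the sum was higher in sorted CTX in the larger cycling ones, at 609 against 545 CPM in cluster 2, led by histone genes, and at 761 against 629 in cluster 4, led by E2f1 and Rfc3. The largest non-cycling cluster, cluster 0, led by Apoe and Socs3, had 173 against 150.4 CPM. Cells that received a class name were few. Sorted naive and sorted CTX held 91 and 106 plasma cell-like, 29 and 61 neutrophil precursor-like and 8 and 54 GMP-like cells. Their part in the difference over all kept cells was not tested apart from the values within clusters. The leading genes of the GMP-like cells included Mpo, Elane, Ctsg and Prtn3, among those by which the study identified neutrophil-like monocytes. With under 10 naive cells per cycling state, GMP-like cells were left out of the level in the same makeup, which covered 96.0% of the UMIs of sorted CTX.

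No member of the 32 with enough UMIs was 1 log2 unit higher or lower in sorted CTX, where 0.243% of all genes were higher and 0.861% lower. The same held for the 11 such members in non-cycling cells, beside 0.396% of all genes higher and 0.882% lower, and for the 32 in cycling cells, beside 0.114% and 0.409%. Over all kept cells 28 of the 32 were above 0, with a median of 0.29, beside 60.8% of all genes. The highest were Fanci (4.49 to 6.95 CPM, 0.63 with 0.28 to 0.99), Exo1 (6.60 to 10.1, 0.61), Brca2 (9.25 to 13.5, 0.54), Palb2, which ties Brca2 to Brca1 (3.37 to 4.89, 0.54) and Fancd2 (4.31 to 6.25, 0.54). The lowest were Xrcc2 (-0.16), Mgmt (-0.09), Ercc4 (-0.08), Fancl (-0.03) and Ercc1 (0.03). In the same makeup 18 of 33 members lay above the naive level beyond the interval, Palb2 (0.41), Fanci (0.40), Exo1 (0.40) and Fanca (0.37) being highest, and Mgmt lay below it (-0.41, from -0.74 to -0.09). That value rested on 81 UMIs of Mgmt in sorted CTX and 83 in sorted naive, and its interval leaves out the error of the latter.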

How the data were processed

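Single-cell libraries of mouse BM had been made with 10x Genomics 3′ V3 chemistry. Per the labels, the authors aligned reads to mm10 with Cell Ranger 3.1 and deposited UMI counts per gene and cell barcode, which were used as raw counts. Libraries held 22694817 to 68459527 UMIs. Each condition had 1 library, so p-values were not computed. Cells with at least 200 genes and under 20% mitochondrial UMIs were kept. Whole BM and sorted libraries were clustered apart in Seurat 5.3.0 (R 4.3.3) with log normalization to 10000, 2000 variable genes without the repair and cycle genes, 30 components, RPCA integration and resolution 0.8. A cluster was named when at least 3 markers of a class had at least 10 UMIs and no other class had more markers among its 10 leading genes. The class also had to be among the 2 best by marker score. The largest neutrophil-like cluster scored best as neutrophil precursor-like. This scoring rule was chosen after the data were seen, and other clusters were used by number. Each cell was thinned to 1000 UMIs for the cycle score. Levels had exact Poisson intervals, ratios exact conditional intervals and shares Clopper-Pearson intervals at 95%. The level in the same makeup was the naive level of each class and cycling state with at least 10 naive cells, weighted by the treated library's UMIs. Members with at least 300 UMIs in whole BM, and the 5 highest and lowest ratios per comparison, could be named. Members and lists were chosen with earlier results of these data known. Alternatives changed the filter, doublets, cycling limit, scaling, strata and clustering, and 3 were added after seeing the data (median scaling of the member counts, each cluster as a stratum, Mgmt left out). The code was tested on simulated data. Python 3.11.15, numpy 2.4.6, scipy 1.17.1, pandas 2.3.3, scanpy 1.11.5 and matplotlib 3.10.9 were used. The matrices had no column of unknown origin.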

Additional observations from a re-analysis of the deposited data

Results flagged for a closer look

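Several ratios pointed in opposite directions in 2 comparisons, and with 1 library per condition the difference between them was not tested. Mgmt over all kept cells stood at a log2 ratio of 2.26 in D2 CTX over naive and at -0.87 in D7 CTX over naive. Polk stood at 1.43 and -1.13 over all kept cells and at 1.74 and -0.85 in cycling cells. Both comparisons used the same naive library. The median gene over all kept cells, with 1 CPM added, stood at 0.20 in D2 CTX and at -0.60 in D7 CTX. In the same makeup at D7 CTX, Mgmt stood at -0.03 (-0.22 to 0.15) and Polk at -0.17 (-0.38 to 0.03), at the naive level within their intervals. The sum of the 34 genes stood at -0.91 in whole BM of D7 CTX and at 0.29 in the sorted monocytes of CTX-treated mice, and in cycling cells at -0.75 and 0.18. Neutrophil precursor-like cells made up 2790 of the 8290 kept D7 CTX cells and 898 of the 7104 naive cells, and their part in this difference was not tested apart from the level in the same makeup. Within the monocyte lineage-like class of whole BM, the sum over all kept cells stood at -0.10 (-0.19 to -0.017) in D7 CTX over naive.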

How the results depend on the processing

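No paired analysis was possible because each condition had 1 library, and no library could be left out. Of 277 recomputed values, 188 stayed within their interval or within 1.5 times the count, 85 moved and 4 turned direction. The stricter filter, the removal of doublets, no filter on UMIs and keeping the listed genes among the variable genes moved none. The cause of the other moves was not tested. Values are log2 ratios of the sum, in the order all kept, cycling and non-cycling cells where 3 are given.

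Scaling by the median of gene ratios gave -0.49, -0.30 and -0.079 at D2 CTX, -0.23, -0.21 and 0.30 at D7 CTX and 0.24 over all sorted cells. In the same makeup it gave 0.12 at D2 CTX and 0.047 at D7 CTX. Cycling over non-cycling cells became 1.88 in naive, 1.62 at D2 CTX and 1.31 at D7 CTX. Under it 6 members were lower and, in non-cycling cells, 0 higher at D2 CTX. At D7 CTX 1 was higher and 1 lower over all kept cells, 0 were lower in cycling cells, and 1 was higher and 2 lower in non-cycling cells. Over all genes the split of higher and lower went from 757 and 371 to 414 and 528 at D2 CTX and from 117 and 2725 to 864 and 868 at D7 CTX, and in cycling cells at D7 CTX from 373 and 1914 to 1031 and 733. With the 20 most abundant genes left out the ratios were -0.30, -0.15 and 0.063 at D2 CTX and -0.47, -0.36 and 0.040 at D7 CTX, in the same makeup 0.18 and -0.026, and for cycling over non-cycling cells 1.75, 1.52 and 1.35.

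Without Xpc the ratios were -0.33, -0.17 and 0.24 at D2 CTX and -1.28, -0.96 and -0.98 at D7 CTX, in the same makeup at D7 CTX -0.13, and for cycling over non-cycling cells 2.37, 1.95, 2.39, 1.81 and 1.85 in the 5 libraries. Without Mgmt D2 CTX gave -0.35 over all kept and -0.21 in cycling cells, 0.16 in the same makeup and 1.68 for cycling over non-cycling cells. The median of the members in place of the sum gave -0.40, -0.27 and 0.066 at D2 CTX, -1.28, -1.07 and -0.89 at D7 CTX, 0.15, -0.17 and 0.20 in the same makeup at D2 CTX, D7 CTX and in sorted cells, and 2.25, 1.99, 2.12, 1.75 and 1.87 for cycling over non-cycling cells. The mean of the cells' CPM gave -0.43 at D2 CTX and -0.62 at D7 CTX, 0.15 and -0.030 in the same makeup, and 2.12 in naive and 1.74 in D7 CTX for cycling over non-cycling cells.

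A cycling limit of 3 UMIs gave 2.22, 1.89 and 1.77 for cycling over non-cycling cells of whole BM. A limit of 8 gave 1.82, 1.42, 1.39, 1.35 and 1.34 in the 5 libraries, -0.16 in cycling and 0.24 in non-cycling cells at D2 CTX, and 0.26 in its makeup. Without thinning these were 2.08, 1.87, 1.70, 1.78 and 1.73, with 0.082 in non-cycling cells at D2 CTX and 0.20 in its makeup. In the makeup of D2 CTX the ratio was 0.093 at resolution 0.4, 0.13 without integration and 0.27 with each cluster as a stratum, and for sorted cells it was 0.13 at resolution 1.2. With 0.1 CPM added, 8 members were lower in non-cycling cells at D7 CTX.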

Other observations

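Genes of neighbouring pathways were followed in the cycling cells at the later time. At D7 CTX 4 of 7 end joining genes were at least 1 log2 unit lower than in naive BM, namely Xrcc5, Xrcc6 and Prkdc, the parts of the kinase that binds broken ends, and the ligase Lig4. So were 9 of 22 excision, mismatch and direct repair genes, 5 of 18 other checkpoint genes and 5 of 30 other crosslink repair genes, beside the 18.6% of all genes lower there. None of these genes was higher. The summed ratio was -1.02 (-1.10 to -0.94) for end joining, -1.01 (-1.05 to -0.98) for the excision and mismatch list, -0.71 (-0.73 to -0.68) for the crosslink list and -0.55 (-0.57 to -0.53) for the checkpoint list, where the median gene stood at -0.49. In sorted monocytes no gene of these lists was 1 log2 unit higher or lower in cycling cells, and the summed ratios lay between -0.0080 and 0.11.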
